A study of Mus musculus with 4 samples.

Results

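Thin filament, light chain and Z-disc genes are the 41 genes that build the actin filament of the sarcomere, the light chains of myosin, the titin and M-band scaffold and the Z-disc. They were taken by symbol from the 21264 genes of the table, and all 41 were matched to 1 row each. By known isoform use, 8 are fast-fibre genes, 9 slow-fibre genes, 3 genes used in developing skeletal muscle and in the heart, and 21 are shared by fibre types or fall outside this split. The 4 mouse libraries form 1 group: satellite cells, which are muscle stem cells, of donor origin, taken back out of the tissue after engraftment of iPax3 cells with NICD3 overexpression (N3OE, replicates 1 to 4). iPax3 cells are myogenic progenitors made from pluripotent stem cells with Pax3, and NICD3 is the intracellular domain of the Notch3 receptor. All 4 libraries carry it, and cells without it are not analysed here, so levels can be compared between genes and libraries but not between conditions. The study asked how Notch3 gain of function bears on engraftment. Host strain, age and sex are not given in the labels used here, nor whether each replicate came from an animal of its own. The SDs and p-values below therefore cover the spread among these libraries, part or all of which may be technical.

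In the sarcomere, calcium binds troponin C, troponin I releases its inhibition and troponin T moves tropomyosin along actin, so that myosin can attach. Essential and regulatory light chains stabilise the myosin neck, alpha-actinin cross-links actin at the Z-disc, and titin and nebulin act as scaffolds of the thick and thin filaments. Most of these proteins exist as fast, slow and developmental isoforms from separate genes, and a resting satellite cell, which has no sarcomere, lies against a fibre that is rich in them. In these bulk samples more cells of a type and more RNA per cell cannot be told apart.

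Depth was 12544138 to 13302916 reads per library, so 1 read was worth 0.0752 to 0.0797 CPM (reads per 1000000 counted reads). No pair of libraries agreed within sampling noise (chi-square per degree of freedom of 113 or more). Notch3 lay between 153 and 191 CPM, where transgene and endogenous reads cannot be told apart, and the satellite cell factor Pax7 between 118 and 142 CPM. All 14 satellite cell markers examined reached 1 CPM in each library, as did 11395 of all 21264 genes of the table.

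The 41 genes took 0.410 ± 0.117% of all reads (SD, n = 4 here and below). The share was 0.306% in replicate 1 (95% Wilson interval 0.303 to 0.309), 0.520% in replicate 2 (0.516 to 0.524), 0.502% in replicate 3 (0.498 to 0.506) and 0.313% in replicate 4 (0.310 to 0.316). Replicates 2 and 3 were thus high and replicates 1 and 4 low. The 5 most abundant of the genes held between 57.0 and 72.5% of these reads. Of the 41, 36 reached 1 CPM in every library and 32 had a mean of at least 10 CPM. Over all 21264 genes of the table these counts were 11395 and 9202. The exceptions to 1 CPM in every library were Tnnc2, Myl2, Myl3, Myl6b and Myoz2, of which 1 is a fast and 4 are slow-fibre genes. No member was without reads in all libraries.

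Per kb of exon, skeletal actin led and most other genes lay close together. Acta1 had 296, 707, 713 and 319 CPM per kb in replicates 1 to 4 and lay above every other member in each library. The alpha-actinin gene Actn3 came next at 186 ± 29.4 CPM per kb, ahead of the fast light chain gene Myl1 at 127 ± 53.1, also in 4 of 4 libraries. Below them the tropomyosin gene Tpm3, the Z-disc cap gene Tcap, Mybpc1, Tnnt3, Tpm1 and Mylpf had means between 90.2 and 33.9 CPM per kb, and no neighbouring pair of them kept its order in all libraries. Ttn, which encodes titin, had a mean of 395 CPM but only 3.38 CPM per kb, since its exons sum to 116825 bases. Of the 40 steps between neighbours in the order of mean CPM per kb, 4 had the same sign in all libraries and 36 did not. These steps were not tested.

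**Figure D1:**
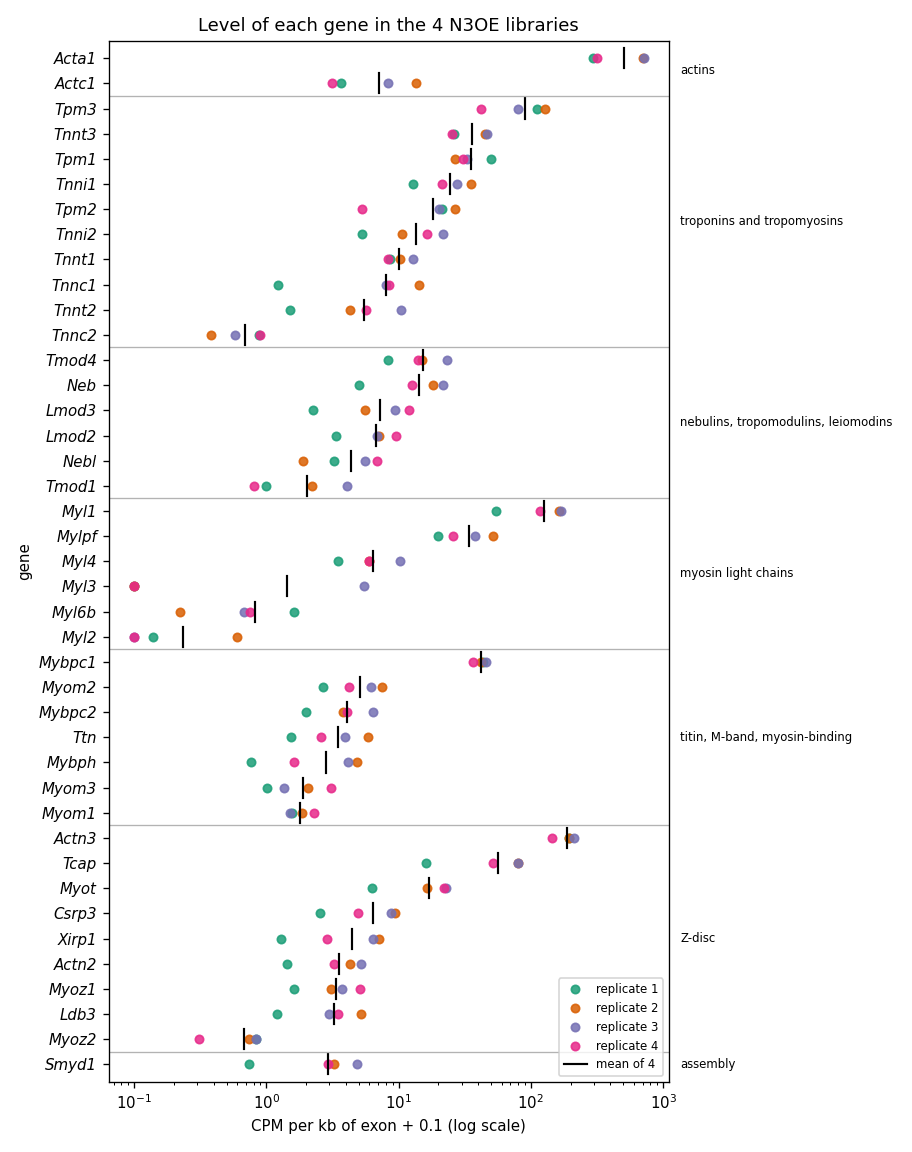
Level of each of the 41 genes in CPM per kb of exon plus 0.1 on a log axis, grouped by role. Points are the 4 N3OE libraries and bars their means; points at 0.1 had no reads. Acta1 stands highest at a mean of 509 CPM per kb, while Myl2 and Myl3 have no reads in 2 and 3 libraries.

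Skeletal actin far exceeded cardiac actin in every library. Acta1 (chromosome 8, 123891769 to 123894751 in GENCODE M21) encodes the actin of adult skeletal thin filaments and had 455, 1086, 1095 and 489 CPM. Actc1, the cardiac actin gene that developing skeletal muscle also uses, had 5.79, 21.6, 13.2 and 4.94 CPM. Both genes were higher in replicates 2 and 3 than in 1 and 4, and Acta1 made up 98.1 to 99.0% of the CPM per kb of this pair. Acta1 minus Actc1 was 6.28 ± 0.40 on log2(CPM per kb + 0.1), from 5.71 in replicate 2 to 6.66 in replicate 4. The actin genes have near-identical coding sequence and how reads with several alignments were handled is not stated, so the split is uncertain. Against the cytoplasmic actin gene Actb, with 747 ± 191 CPM per kb, the difference of Acta1 minus Actb was -0.64 ± 0.79 on that scale and negative in 4 of 4 libraries, with -0.06 and -0.05 in replicates 2 and 3. The smooth muscle actin gene Acta2 ran the other way, with 1143 CPM in replicate 1 against 287 to 483 CPM in the others. The other 10 smooth muscle and mural markers summed to 824, 722, 730 and 561 CPM in replicates 1 to 4. Of these, Des, also counted below among the other sarcomere and assembly genes, had 324, 400, 375 and 116 CPM. It held a large part of the sums in replicates 2 and 3. The whole list of 11, with Acta2, summed to 1966 CPM in replicate 1 and 1008 to 1214 CPM in the others. Of its 7 genes of at least 10 CPM, Acta2 and Mylk were highest in replicate 1 and 5 in another library. That is 28.6% highest in replicate 1, near the 26.4% of all genes of that level. In all, 9 of the 11 reached 1 CPM everywhere, and Tagln stayed under 1 CPM. Their part in the actin levels was not tested.

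Promoter sequence was shown for members that hold a CArG box, the element bound by serum response factor, because actin genes are its textbook targets. RefSeq windows on GRCm38.p6, from 250 bases before to 50 after a start, were found for 31 members in 40 windows. The CArG box was searched on both strands, and 6 of 31 members (19.4%) held it against 488 of 27025 genes (1.81%). By window the counts were 7 of 40 against 535 of 32851 (1.63%). No CArG box in these windows overlapped the other motifs searched. Those were the E-box CANNTG (34 of 40 member windows, 72.3% of all windows), TATAAA (7 of 40, 13.6% of all) and the MEF2 box (3 of 40, 3.19% of all). Besides Nebl, the 5 genes are printed 5′ to 3′ on the gene's own strand, with the CArG box in capitals. Ldb3, which encodes a Z-disc PDZ and LIM protein, has a pair of overlapping windows, and 1 is printed.
Acta1, chr8:123894726-123895025, minus strand: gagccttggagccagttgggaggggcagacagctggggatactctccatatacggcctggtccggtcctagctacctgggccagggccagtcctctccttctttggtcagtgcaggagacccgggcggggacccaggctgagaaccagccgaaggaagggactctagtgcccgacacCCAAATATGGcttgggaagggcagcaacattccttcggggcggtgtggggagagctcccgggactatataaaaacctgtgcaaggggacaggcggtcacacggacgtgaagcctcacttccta
Actc1, chr2:114052826-114053125, minus strand: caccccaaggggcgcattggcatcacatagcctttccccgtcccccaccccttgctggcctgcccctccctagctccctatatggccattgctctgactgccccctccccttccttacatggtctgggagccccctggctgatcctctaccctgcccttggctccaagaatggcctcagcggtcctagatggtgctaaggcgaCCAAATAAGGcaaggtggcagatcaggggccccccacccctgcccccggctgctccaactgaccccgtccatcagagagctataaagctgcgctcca
Ldb3, chr14:34588558-34588857, minus strand: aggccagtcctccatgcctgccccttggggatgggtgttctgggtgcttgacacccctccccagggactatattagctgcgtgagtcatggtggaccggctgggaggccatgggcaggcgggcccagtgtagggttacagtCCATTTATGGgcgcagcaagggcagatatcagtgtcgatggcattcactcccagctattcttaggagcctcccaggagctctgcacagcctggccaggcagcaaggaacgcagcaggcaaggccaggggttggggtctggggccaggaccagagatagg
Myl3, chr9:110763428-110763727, plus strand: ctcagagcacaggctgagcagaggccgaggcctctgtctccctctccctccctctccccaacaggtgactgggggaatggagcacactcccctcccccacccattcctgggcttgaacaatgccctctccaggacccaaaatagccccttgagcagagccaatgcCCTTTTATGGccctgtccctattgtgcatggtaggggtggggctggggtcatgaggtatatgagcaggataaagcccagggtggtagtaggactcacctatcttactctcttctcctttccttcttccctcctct
Myom1, chr17:71019307-71019606, plus strand: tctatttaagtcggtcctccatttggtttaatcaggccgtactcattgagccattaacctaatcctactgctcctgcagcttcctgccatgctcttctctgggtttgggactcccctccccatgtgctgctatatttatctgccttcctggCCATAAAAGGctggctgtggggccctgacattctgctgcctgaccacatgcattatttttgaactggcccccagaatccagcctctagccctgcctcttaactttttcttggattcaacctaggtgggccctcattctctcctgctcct
A match in these windows is a description and not evidence of binding. The levels of the 5 genes differed widely, with means of 509, 7.05, 3.12, 1.34 and 1.71 CPM per kb in the order printed, which are ranks 1, 19, 31, 37 and 36 of the 41.

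Within libraries the isoform make-up was mixed. Of 8 pairs of a fast and a slow isoform, the fast gene was higher per kb in 4 of 4 libraries for 4 pairs and lower in 4 of 4 for the other 4. Tpm1 is the fast gene of 1 of these pairs but, as a gene with products in many cells, is not among the 8 genes classed as fast. Without it 4 of 7 pairs were higher and 3 lower. Tpm3 and Myl6b also have non-muscle products but stayed among the 9 slow genes, so the classes were not treated alike. Tpm3 was the highest slow gene, at 90.2 CPM per kb, and class means without it were not computed. Over all 20 pairs compared, 17 had the same sign in all 4 libraries, 11 with the first gene higher and 6 with it lower. Each of these 17 had an exact two-sided sign-flip permutation p of 0.125 over 4 libraries (Benjamini-Hochberg adjusted over the 20 pairs, 0.147). That is the smallest p this test can give here, so no pair could pass 0.05. As class means on log2(CPM per kb + 0.1), the 8 fast genes stood at 3.87 ± 0.41, the 9 slow genes at 1.82 ± 0.47 and the 3 developmental genes at 2.44 ± 0.79. Of the slow genes, Myl2 had 1, 13, 0 and 0 reads and Myl3 had 0, 0, 143 and 0 reads in replicates 1 to 4. Where they had no reads they lay at the pseudocount, which lowered the slow mean. Class means without Myl2 and Myl3 were not computed. Fast minus slow was 1.78, 1.96, 1.86 and 2.58 in replicates 1 to 4, and fast minus developmental 1.86, 1.16, 1.01 and 1.71. Both differences were positive in each library, but they average over families that point in opposite directions. Without division by exon length, on log2(CPM + 1), their means were 1.12 and 0.46, against 2.05 ± 0.36 and 1.43 ± 0.41 per kb. With length kept and a pseudocount of 1 they were 1.39 and 1.46.

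**Figure D2:**
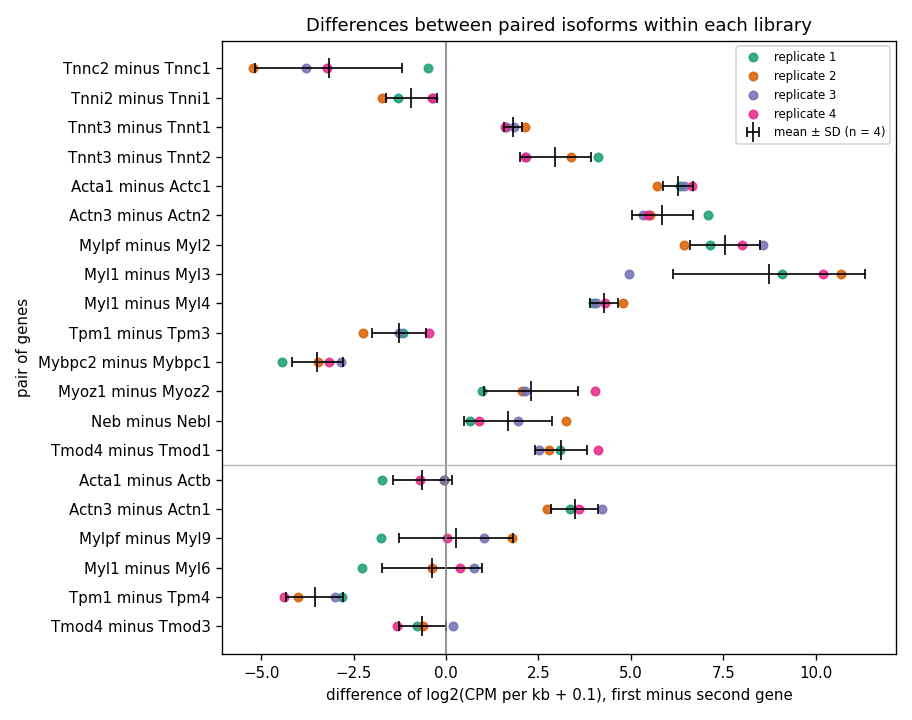
Difference of log2(CPM per kb + 0.1) between the genes of each of 20 pairs, first minus second, by library, with mean and SD (n = 4). Pairs above the line are muscle isoforms and those below set a muscle gene against a non-muscle paralog. Among the muscle isoforms, light chain, actin and actinin pairs lie far right of 0, and Tnnc2, Tnni2, Tpm1 and Mybpc2 lie left of 0 against their slow partners; below the line Acta1 minus Actb, Myl1 minus Myl6 and Mylpf minus Myl9 lie near 0 at -0.64, -0.38 and 0.27.

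The troponin genes did not take 1 isoform type. Among troponin T genes the fast isoform led: Tnnt3 had 26.3, 44.7, 46.6 and 25.03 CPM per kb. The slow gene Tnnt1 had 8.48, 10.2, 12.9 and 8.17 CPM per kb, and the cardiac and developmental gene Tnnt2 had 1.41, 4.19, 10.2 and 5.57. Tnnt3 lay above both others in each library and made up 69.9 ± 5.14% of the CPM per kb of the family, against 17.2 to 23.4% for Tnnt1 and 3.90 to 14.7% for Tnnt2. Tnnt3 minus Tnnt1 was 1.80 ± 0.25 and Tnnt3 minus Tnnt2 was 2.96 ± 0.97 on the log2 scale per kb. This order with Tnnt2 rests on the division by exon length, 7752 bases for Tnnt2 against 1583 for Tnnt3. In CPM, Tnnt3 had 41.6, 70.8, 73.8 and 39.6 and Tnnt2 had 10.9, 32.5, 79.5 and 43.2, so that Tnnt2 was the higher in replicates 3 and 4. Without length the difference was 0.68 on log2(CPM + 1) (exact sign-flip permutation p = 0.5, n = 4).

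For troponin I the slow gene was higher. The fast gene Tnni2 had 5.17, 10.6, 21.7 and 16.2 CPM per kb, and the slow gene Tnni1 had 12.8, 35.4, 27.7 and 21.1 CPM per kb. The gap was wide in replicates 1 and 2 and narrow in replicates 3 and 4, where Tnni2 made up 44.0 and 43.4% of the pair against 28.8 and 23.0%. Tnni2 minus Tnni1 was -0.94 ± 0.68, negative in 4 of 4 libraries. Tnni1 is also the troponin I of developing muscle, so this pair does not separate slow from immature expression.

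Troponin C stood apart because its fast gene was almost without reads. Tnnc2 (chromosome 2, 164777161 to 164779967) had 8, 3, 5 and 8 reads, which is 0.226 to 0.638 CPM. The slow and cardiac gene Tnnc1 had 1.17, 14.7, 8.19 and 8.69 CPM, low in replicate 1 only. Tnnc2 minus Tnnc1 was -3.18 ± 1.99 on the log2 scale per kb, with -0.48 in replicate 1 and -5.22 to -3.23 in the others. Exons of Ube2c on the other strand cover 74.0% of the Tnnc2 exon sequence, and the strand setting of the counting is not given. The part of this overlap in the low value of Tnnc2 was not tested. Ube2c itself had 1.61 to 6.54 CPM.

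Among the 3 tropomyosin members Tpm3 was highest per kb in each library. Tpm1, the gene of fast alpha-tropomyosin, had 50.1, 26.8, 33.0 and 30.5 CPM per kb, against 111, 127, 79.8 and 42.0 CPM per kb for Tpm3, the gene of slow alpha-tropomyosin. Tpm1 minus Tpm3 was -1.28 ± 0.73, negative in 4 of 4 libraries. Both genes also make non-muscle isoforms from the same locus, so gene counts do not give their muscle part. Tpm1 was the only 1 of the 32 members of at least 10 CPM that was highest in replicate 1, with 325 CPM there and 174 to 214 CPM in the others. Tpm2, beta-tropomyosin, had 61.4, 78.0, 58.0 and 15.0 CPM, low in replicate 4. The non-muscle gene Tpm4 lay above all 3 members in each library, with 352, 434, 266 and 645 CPM per kb. Tpm1 minus Tpm4 was -3.56 ± 0.77 on the log2 scale per kb.

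The light chains were of the fast type. Myl1 (chromosome 1, 66924295 to 66945404), the fast essential light chain, had 54.7, 164, 169 and 118 CPM per kb. Mylpf, the fast regulatory light chain, had 19.8, 52.0, 37.9 and 25.7 CPM per kb. Both were lowest in replicate 1. Their slow and ventricular counterparts were close to absent. Myl2, the slow regulatory light chain, had 1, 13, 0 and 0 reads. Myl3, the slow essential light chain, had 143 reads in replicate 3, which is 10.9 CPM, and none in replicates 1, 2 and 4. A count of 0 allows up to 0.226 to 0.239 CPM per library (3 counts). Against that floor per library, Mylpf was at least 322-fold and 210-fold higher than Myl2 per kb in replicates 3 and 4. Myl1 was at least 477-fold, 1488-fold and 1009-fold higher than Myl3 in replicates 1, 2 and 4. In replicate 3 Myl1 exceeded Myl3 by 4.96 on the log2 scale per kb.

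The other essential light chains were low beside Myl1. Myl4, the embryonic and atrial isoform, had 15.8, 27.1, 47.0 and 27.3 CPM, and made up 4.83 ± 1.03% of the CPM per kb of the 4 essential light chain genes. Myl1 minus Myl4 was 4.28 ± 0.37. Myl6b, a slow-muscle and non-muscle isoform, had 2.81, 0.226, 1.07 and 1.20 CPM, highest in replicate 1. The slow myosin heavy chain gene Myh7 had 6.41, 98.5, 71.7 and 67.8 CPM, so the near absence of Myl2 and Myl3 in replicates 2 and 4 stood beside Myh7 reads in the same libraries. Of 10 heart markers 8 averaged under 1 CPM, with no read of Myl7 and 1 read of Nppa in all, and the list summed to 7.98, 28.6, 22.0 and 17.5 CPM, mostly from Myh6, whose sequence is close to that of Myh7. Against the non-muscle paralogs Myl9 and Myl6 the direction depended on the library. Myl12a, a further non-muscle regulatory light chain gene, had 164, 195, 201 and 433 CPM per kb, above Mylpf in each library. It was not among the pairs compared. Mylpf minus Myl9 was -1.76 in replicate 1 and 0.02 to 1.79 in the others (exact sign-flip permutation p = 0.625, n = 4). Myl1 minus Myl6 was -2.27, -0.38, 0.75 and 0.39 in replicates 1 to 4 (exact sign-flip permutation p = 0.875, n = 4). Over 4 libraries the means were 0.27 ± 1.53 and -0.38 ± 1.35, and they turned to -0.24 without replicate 2 and to 0.25 without replicate 1. For Myl6, as for other genes with copies elsewhere in the genome, the counts are uncertain.

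**Figure D3:**
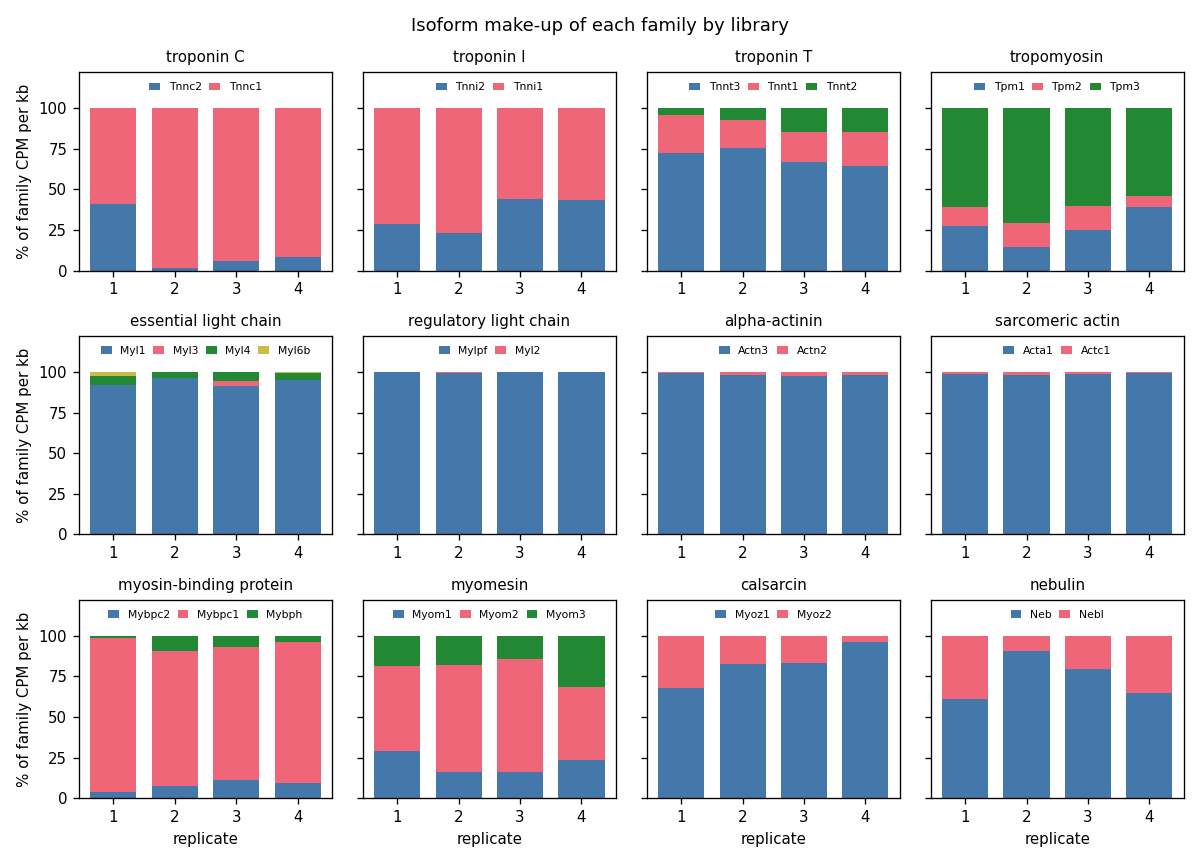
Make-up of 12 families as a percent of the family's summed CPM per kb, in replicates 1 to 4. Mylpf, Actn3 and Acta1 fill over 97% of their families in each library, whereas troponin I stays mixed, with Tnni2 at 23.0 to 44.0%.

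Titin, nebulin and the myosin-binding proteins differed in how much they moved. Ttn had 169, 669, 451 and 291 CPM, and Neb, the gene of the thin filament ruler nebulin, had 132, 477, 577 and 332 CPM. Both were lowest in replicate 1, and their ranges were 3.96-fold and 4.38-fold. Nebl, which encodes the cardiac relative nebulette, had 47.7, 27.5, 83.9 and 103 CPM, low in replicate 2. Neb minus Nebl was 1.68 ± 1.19 per kb, from 0.65 in replicate 1 to 3.24 in replicate 2. With the longest transcript as length it was 1.03 and no longer had the same sign in all libraries (exact sign-flip permutation p = 0.25, n = 4). Mybpc1, the slow myosin-binding protein C gene, held almost still at 195, 191, 208 and 165 CPM. The fast gene Mybpc2 had 6.80, 13.4, 22.7 and 14.3 CPM, so Mybpc2 minus Mybpc1 was -3.49 ± 0.69 per kb. Mybph, a related gene, had 1.56, 11.1, 9.49 and 3.51 CPM, but exons of Adora1 on the other strand cover 49.9% of its exon sequence.

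The M-band genes Myom1, Myom2 and Myom3, which cross-link thick filaments, were low per kb. Myom2 led with 58.1 ± 11.8% of the family, against 21.3 ± 6.48% for Myom1 and 20.6 ± 7.63% for Myom3. Myom2 had 23.0, 65.1, 53.6 and 36.6 CPM, and Myom1 stayed between 14.6 and 23.1 CPM. Myom3 was highest in replicate 4 at 17.9 CPM and lowest in replicate 1 at 5.55 CPM.

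At the thin filament ends, tropomodulins cap actin and leiomodins nucleate it. Tmod4, the skeletal muscle tropomodulin, had 14.2, 25.9, 40.0 and 23.8 CPM, and Tmod1 had 3.52, 8.34, 15.8 and 2.79 CPM. Tmod4 minus Tmod1 was 3.12 ± 0.70 per kb, while exons of Tstd2 on the other strand cover 32.6% of the Tmod1 exon sequence. Against the widely expressed Tmod3, Tmod4 gave -0.64 ± 0.63, negative in 3 of 4 libraries (exact sign-flip permutation p = 0.25, n = 4). It was -1.70 with the longest transcript as length and -3.29 without length, negative in 4 of 4 libraries in both (exact sign-flip permutation p = 0.125, n = 4). Lmod2 and Lmod3 had similar levels per kb, 6.64 ± 2.57 and 7.17 ± 4.25 CPM per kb, both lowest in replicate 1 and highest in replicate 4.

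Of the Z-disc genes, Actn3 alone was abundant and steady. Actn3 (chromosome 19, 4861216 to 4877909), the alpha-actinin of fast fibres, had 563, 567, 613 and 417 CPM. Actn2, the alpha-actinin found in all fibres and in the heart, had 5.08, 15.9, 19.4 and 11.9 CPM. Actn3 was high in all 4 libraries while Actn2 was low in replicate 1, and Actn3 minus Actn2 was 7.08 there against 5.34 to 5.51 in the others. Actn3 also exceeded the non-muscle gene Actn1, by 3.48 ± 0.62 per kb in 4 of 4 libraries. The other non-muscle alpha-actinin gene, Actn4, was more abundant than Actn1. Actn4 had 112, 120, 111 and 68.8 CPM per kb, below Actn3 in each library. Without length it had 689, 734, 681 and 422 CPM, above Actn3 in each library.

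The remaining Z-disc genes were mostly lowest in replicate 1. Tcap, which caps titin at the Z-disc, had 15.2, 75.4, 75.2 and 48.8 CPM. Xirp1, an actin-binding repeat protein gene, had 6.96, 40.7, 36.7 and 16.3 CPM, and Myot, the gene of myotilin, had 13.7, 36.2, 50.3 and 48.5 CPM. In each of these genes replicate 1 was below every other library. Ldb3 and Csrp3, which encodes muscle LIM protein, ranged from 6.72 to 31.1 CPM and from 6.49 to 24.7 CPM, also lowest in replicate 1. The calsarcin genes were rare. Myoz1, the fast isoform, had 2.89, 5.64, 6.81 and 9.41 CPM, and Myoz2, the slow and cardiac isoform, had 2.50, 2.18, 2.53 and 0.717 CPM. Myoz1 minus Myoz2 was 2.30 ± 1.27 per kb, widest at 4.03 in replicate 4. Smyd1, a methyltransferase gene needed for myofibril assembly in the mouse heart and in zebrafish muscle, had 2.89, 14.4, 21.6 and 12.8 CPM.

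Across libraries, replicate 1 was the lowest for most of these genes. Of the 32 members with a mean of at least 10 CPM, 22 were lowest there, against 28.2% of all 9202 genes of that level. A further 7 were lowest in replicate 4 (31.3% of all genes), 2 in replicate 2 (22.1%) and 1 in replicate 3 (18.4%). Their maxima lay in replicate 3 for 15 (23.7% of all genes), in replicate 2 for 11 (19.5%), in replicate 4 for 5 (30.4%) and in replicate 1 for 1 (26.4%). The median deviation of the 32 from their own mean was -0.82, 0.39, 0.48 and -0.02 on log2(CPM + 1) in replicates 1 to 4, and over all 9202 genes it was 0.00, -0.01, 0.08 and 0.00. The low values of replicate 1 were already known from earlier results on an overlapping sarcomere list and are not independent support. The genes lowest elsewhere were Actn3, Tnnt1, Tnnt3, Tpm2, Tpm3, Mybpc1 and Actc1 in replicate 4, Tpm1 and Nebl in replicate 2, and Myom1 in replicate 3. By class, 4 of 6 fast, 1 of 4 slow, 2 of 3 developmental and 15 of 19 shared genes of that level were lowest in replicate 1.

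**Figure D4:**
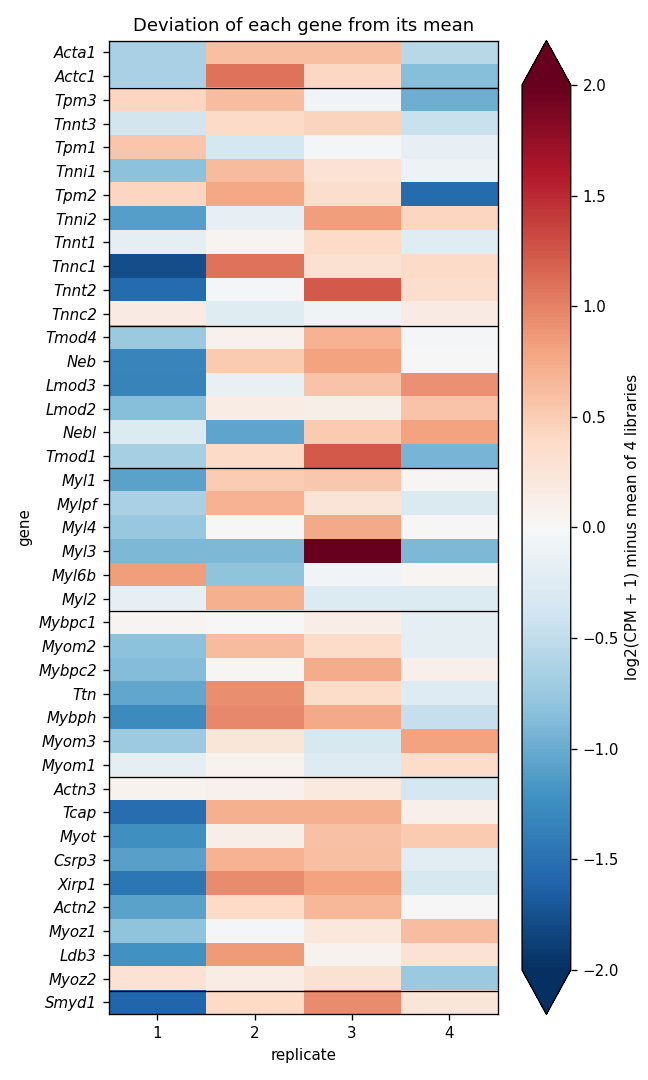
Deviation of log2(CPM + 1) from the mean of the 4 libraries for each of the 41 genes, by replicate, in the order of the plot of levels. Blue is below and red above the mean, and the arrows of the scale mark values beyond it. Most rows are blue in replicate 1, and Actn3, Mybpc1, Tpm1, Tpm2 and Tpm3 are among the rows that are not.

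The spread between libraries was wide for a few members and narrow for others. A gene was called variable with a mean of at least 10 CPM and an SD of log2(CPM + 1) of at least 1. Of the 32 members of that level 5 were variable, namely Tnnt2, Tpm2, Tcap, Smyd1 and Xirp1, against 2.08% of all genes (191 of 9202). Without replicate 1 the count was 2 of 33 members (6.06%), near the 5.55% of all genes. Without replicate 2, 3 or 4 it was 9, 7 and 8 members, against 8.56, 8.05 and 4.69% of all genes. The median SD was 0.73 for the 32 members and 0.62 for all genes. At the narrow end, Mybpc1 had an SD of 0.14, close to Pax7 at 0.14, and Actn3 had an SD of 0.25. The median range from lowest to highest library was 3.27-fold for the members and 2.65-fold for all genes, from 1.26-fold for Mybpc1 to 7.46-fold for Smyd1.

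**Figure D5:**
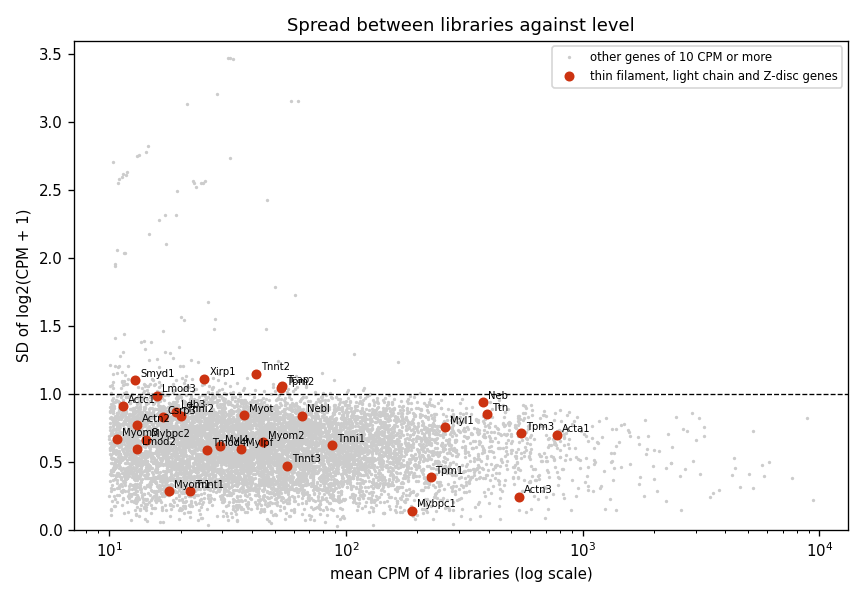
SD of log2(CPM + 1) between the 4 libraries against mean CPM on a log axis, for the genes of 10 CPM or more. Red points are the 32 members of that level and the dashed line is the SD of 1. Tnnt2, Xirp1, Smyd1, Tcap and Tpm2 lie above the line, and Mybpc1 and Actn3 lie near the bottom.

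Other muscle genes had partly the same library pattern. Among all 9202 genes of at least 10 CPM, 28.2% were lowest in replicate 1 and 26.4% highest there. The share lowest in replicate 4 was 31.3%, and 2.08% were variable. Of 27 other sarcomere and assembly genes with at least 10 CPM, 14 were lowest in replicate 1 and 3 were variable, namely Trim63, Klhl41 and Ankrd2. The most abundant of that list ran otherwise: Hspb1, a small heat shock protein gene, had 1275, 618, 1126 and 892 CPM, Palld 1242, 814, 479 and 471 CPM, and Pdlim7 893, 469.5, 486 and 249 CPM. Of 4 myosin heavy chain genes of that level, Myh1, Myh4 and Myh7 were lowest in replicate 1. Markers of differentiating myocytes summed to 729, 1251, 1209 and 762 CPM, of which Cdkn1a and Chrna1, both lowest in replicate 4, held a large part. Without them the sums were 257, 529, 642 and 506 CPM. Of the 12 such markers of at least 10 CPM, 6 were lowest in replicate 1 and 4 in replicate 4. Fibre genes outside the sarcomere summed to 551, 1925, 1153 and 850 CPM, and 14 of these 15 reached 1 CPM in every library. Car3 held a large part of these sums, with 285, 1236, 684 and 540 CPM. Of the 11 such genes of at least 10 CPM, 5 were lowest in replicate 1 and 6 in replicate 4. Satellite cell markers summed to 4164, 4056, 5570 and 4392 CPM, of which Vcam1 held 927, 914, 1983 and 1594 CPM. Of the 13 satellite cell markers of at least 10 CPM, 2 were lowest in replicate 1. Of 11 paralogs outside skeletal muscle at that level, 3 were lowest in replicate 1 (27.3%, near the share of all genes) and 5 highest there (45.5%).

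Markers of other cells also moved between libraries. Macrophage markers summed to 22.4, 153, 69.4 and 148 CPM, with no read of Adgre1 in replicate 1. Endothelial markers summed to 330, 259, 116 and 130 CPM, highest in replicate 1. Fibroadipogenic markers summed to between 6097 and 8944 CPM, of which Col3a1 held 3491 to 5633 CPM and Gsn, Dpt and Col1a1 most of the rest. Other members of that list were low, with at most 2.30 CPM of Pdgfra, 5.05 CPM of Lum and 3.44 CPM of Pi16. Dcn had 9.15, 2.93, 52.8 and 15.4 CPM in replicates 1 to 4. Library deviation also followed transcript GC content, with a Spearman coefficient across 9195 genes of 0.44, 0.22, 0.01 and -0.56 in replicates 1 to 4, which is a description across genes. With GC content and length fitted out, 26 of the 32 members were lowest in replicate 1, against 25.7% of all genes. The part of differentiating cells, fibre RNA, other cells or GC content in the levels of the 41 genes was not tested.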

How the data were processed

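Low-input RNA sequencing (bead extraction, NEBNext cDNA amplification, Nextera XT libraries, per the labels' protocols) gave 4 N3OE libraries of 12544138 to 13302916 reads. The deposited values are log2 CPM with a constant offset, as the values themselves show. Trimmomatic 0.33, FastQC, featureCounts, edgeR and the mm10 genome appear in the submitters' processing notes. Aligner, annotation release, strand setting and handling of multiply aligned reads were not given in the sources used here.

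CPM was recovered as 2 to the power of each value minus the offset of 0.0548 CPM. Of these values 100% were whole numbers of reads within 1e-06 reads. Because the plan was written for linear CPM, recovered CPM took its place. Levels were divided by the summed exon length of GENCODE M21, on the same assembly as mm10, to which 21224 identifiers matched and 40 did not. The genes of a pair were compared within libraries by sign flips of their differences (16 assignments, an exact two-sided permutation test). Class levels, spread and library extremes are descriptions with no test. The rules for SD calls and for the lowest library, written again for this purpose, were tried on simulated counts. So was the return from log2 CPM to reads, with the read totals known. The estimate of read totals from the deposited values was not part of this trial. The simulated spread was set and not taken from these libraries.

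Members and lists were chosen with earlier results of these data known. The rule for named genes allowed all 41 members, pair partners, the 3 most abundant genes of other lists and defining markers. Other genes, such as Trim63, Klhl41, Ankrd2, Myh1, Myh4, Actn4, Ube2c, Adora1 and Tstd2, were chosen after their values were seen. Alternatives changed the pseudocount, length, minimum level, scaling, and GC and length correction, and left out each library. Without molecular identifiers reads are not independent, and the intervals and floors describe counting error alone. Python 3.11.15, numpy 2.4.6, pandas 2.3.3 and scipy 1.17.1 were used.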

Additional observations from a re-analysis of the deposited data

Results flagged for a closer look

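Each of 64 quantities (41 genes, 20 pair differences, 2 class differences and the share of reads) was searched for a library whose gap to the nearest other exceeded the 95% limit of Dixon's criterion for 4 values, which chance passes in about 1 of 20 groups. It was met by 3. Myl3 had 10.9 CPM (143 reads) in replicate 3 and no read in the others. Myl2 had 0.977 CPM (13 reads) in replicate 2, against 1, 0 and 0 reads in replicates 1, 3 and 4. The difference Actn3 minus Actn2 was 7.08 in replicate 1, against 5.51, 5.34 and 5.48 on the log2 scale per kb in replicates 2, 3 and 4.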

How the results depend on the processing

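No paired analysis was possible because all 4 libraries belong to 1 group. Of the 160 values that the 20 pair differences took under other settings, 157 kept their sign. Myl1 minus Myl6 turned to 0.49 with the longest transcript as length, and lay between -0.75 (without replicate 3) and 0.25 (without replicate 1) when a library was left out. Mylpf minus Myl9 lay between -0.24 (without replicate 2) and 0.95 (without replicate 1). The cause was not tested. Pairs with the same sign in all libraries numbered 17 to 18, but not always the same ones. Without length Tnnt3 minus Tnnt2 (0.68) left them and Tmod4 minus Tmod3 (-3.29) joined. With the longest transcript Neb minus Nebl (1.03) left and Tmod4 minus Tmod3 (-1.70) joined. Without length Tnni2 minus Tnni1 (-2.14), Mylpf minus Myl2 (4.84), Myoz1 minus Myoz2 (1.24), Tmod4 minus Tmod1 (1.82), Acta1 minus Actb (-1.44) and Tpm1 minus Tpm4 (-1.999) kept their common sign but moved by over 1.5 times. That setting, log2(CPM + 1), also raised the pseudocount to 1. With length kept, a pseudocount of 1 alone gave -0.88, 4.87, 1.38, 2.51, -0.64 and -3.52 for these pairs in the same order. Pairs with the same sign in all libraries numbered 15 of 18 when both genes had to reach a mean of 1 CPM. Fast minus slow was 2.58 with a pseudocount of 0.01, 1.39 with 1, 1.12 without length and 2.69 without Tnnc2, an alternative chosen after seeing the data. With members of a mean of at least 1 CPM only it was 2.14, which drops Tnnc2 and Myl2 but keeps Myl3. Fast minus developmental was 0.46 without length, and 2.08 both without Tnnc2 and with members of at least 1 CPM only, which drops the same fast gene. The variable members numbered 8 of 39 at a minimum of 1 CPM (5.94% of all genes), 2 of 13 at 50 CPM (0.734%) and 1 of 32 with a pseudocount of 5 (0.619%), and 2 to 9 when a library was left out. Scaling by median ratios or upper quartile moved the median gene by at most 0.07 (log2) and changed neither the variable nor the replicate 1 count. With 4 libraries no pair can pass 0.05, and genes with few reads, such as Tnnc2, Myl2 and Myl6b, are set by single reads.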

Other observations

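The leiomodin pair changed its make-up between libraries. Lmod2 made up 60.1, 56.2, 42.5 and 44.5% of the CPM per kb of both genes in replicates 1 to 4, and Lmod3 the rest. Some members kept a ratio across libraries although their levels moved. Mylpf minus Tnni1, neighbours in the order of levels and chosen here after their values were seen, was 0.48 ± 0.15 on log2(CPM per kb + 0.1), positive in 4 of 4 libraries, while both were lowest in replicate 1. Of the genes on the other strand of members, Adora1 had 2.48 to 12.4 CPM and Tstd2 13.8 to 45.5 CPM. Myl12a, whose exons cover 1.98% of the Myom1 exon sequence, had 552 to 1456 CPM. Like Myom1 it was highest in replicate 4. The part of this overlap in the level of Myom1 was not tested.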
